A study of Mus musculus with 24 samples.

Results

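Transcription of 10 genes that lie beside *Col1a2* on mouse chromosome 6 was followed in cultured osteoblasts (OBs) with and without a mutation in *Col1a2*. The genes, in their order along the chromosome, are *Samd9l*, *Gng11*, *Sgce*, *Peg10*, *Ppp1r9a*, *Pon2*, *Asb4*, *Pdk4*, *Dync1i1* and *Slc25a13*. They were taken by name from the 55335 genes in each count file, as genes within 4 Mb of *Col1a2* that include the *Peg10* imprinted cluster, and each of the 10 was found and passed the filter on low counts in every comparison. The choice made use of measured values without saying which, so every comparison of genotypes is given below as a description. Counts of genes past an adjusted p of 0.05 between genotypes stand beside the share of all genes, no p of a gene is printed there and nothing is read from such a count. Comparisons of days and of replicate sets are tested. Whether the choice also used their values is not known. Their p-values would be too small if it did, and no conclusion on the 10 genes as a set is drawn from them. Within the same 4 Mb on either side, 108 genes are annotated, *Col1a2* included, and 31 of them averaged at least 50 counts per library. The first of them starts at base 3051289 and the last ends at 8510430, so the annotated part is shorter toward the centromere.

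In an imprinted gene, only the copy inherited from a particular parent is transcribed. *Peg10* and *Sgce* are transcribed away from each other from a shared control region that is methylated on the maternal copy, so both are read from the paternal copy. *Ppp1r9a*, *Pon2* and *Asb4*, farther along, favour the maternal copy in some tissues, most clearly in placenta. *Peg10* derives from a retrotransposon, retains its gag-like and pol-like reading frames, and is required for placenta formation.

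All cultures were primary OBs from parietal bones of mouse pups aged 4 to 5 days, kept in ascorbate-containing osteogenic medium. WT cells came from C57BL/6J animals and Het cells from B6.129(FVB)-Col1a2tm1Mcbr/J animals with a single mutated *Col1a2* allele (glycine to cysteine in the procollagen α2(I) chain), with 4 libraries of each genotype at days 8, 14 and 21. The study bred the mutant line on a C57BL/6J background and brought in stock animals of that strain at intervals. The strain name gives 129 as the donor, so donor sequence linked to the allele can accompany it on chromosome 6. How much of it remained is not given, and an effect of the mutation cannot be told apart from one of linked sequence. The counts carry no allele information, and the parent that transmitted the mutated allele is not given in the sources used here. Cells of several pups were pooled per genotype, so libraries of an experiment are not independent animals and p-values measure only the spread between these libraries. The study ran separate experiments with other litters, seeding densities and oxygen levels, and the labels do not tie a library to an experiment. Replicate 1 was shallower in every group (6 libraries, 17140202 to 25825762 counts) than replicates 2 to 4 (18 libraries, 28159342 to 59734231 counts), and values are therefore also given for each set. Levels are given as relative quantity (RQ), a gene's count over the geometric mean of the counts of *Sdha*, *Mrfap1*, *Actb* and *Actg1* in that library. These 4 housekeeping genes had a fitted log2 fold change of −0.037 to 0.063 between genotypes at days 14 and 21, where *Col1a2* itself had one of −0.41 ± 0.12 (SE). Because the 4 genes set the scale, their changes offset one another and cannot show how stable the scale is.

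In GRCm38 coordinates on chromosome 6, *Col1a2* spans 4504814 to 4541544 on the forward strand. Toward the centromere lie *Gng11* (4003904 to 4008445, forward) and *Samd9l* (3372257 to 3399572, reverse). On the other side *Sgce* (4674350 to 4747207, reverse) and *Peg10* (4747306 to 4760517, forward) start 98 bases apart. They are followed by *Ppp1r9a* (4902917 to 5165661, forward), *Pon2* (5264147 to 5298455, reverse), *Asb4* (5383386 to 5433022, forward), *Pdk4* (5483351 to 5496309, reverse), *Dync1i1* (5725639 to 6028039, forward) and *Slc25a13* (6041218 to 6217173, reverse). The only exon overlap between a listed gene and another gene was a stretch of 680 bases shared by *Pon2* and *Gm44424* on opposite strands, and *Gm44424* held 319 counts over all libraries against 39786 for *Pon2*. Start regions from RefSeq (GRCm38.p6, 250 bases before to 50 after the start) were at hand for 7 of the 10 genes, not for *Gng11*, *Sgce* and *Peg10*. Those of 4 successive genes that were lower in Het in every replicate pair at days 14 and 21 are printed first, and those of *Ppp1r9a*, whose genotype difference turned with time, last. *Ppp1r9a* has 2 such regions in the table, neither at the start position given above, and both are shown. *Asb4* also has 2, of which the region at that position is shown, and the *Pdk4* region is not centred on that position either. Capitals mark CG pairs, the sites of DNA methylation in mammals.

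*Asb4*, chr6:5383136-5383435, forward strand: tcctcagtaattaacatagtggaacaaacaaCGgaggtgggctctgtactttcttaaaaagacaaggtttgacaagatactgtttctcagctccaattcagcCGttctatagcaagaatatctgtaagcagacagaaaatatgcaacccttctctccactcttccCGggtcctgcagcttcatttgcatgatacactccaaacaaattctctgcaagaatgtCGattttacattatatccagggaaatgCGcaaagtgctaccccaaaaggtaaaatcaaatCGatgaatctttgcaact

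*Pdk4*, chr6:5496229-5496528, reverse strand: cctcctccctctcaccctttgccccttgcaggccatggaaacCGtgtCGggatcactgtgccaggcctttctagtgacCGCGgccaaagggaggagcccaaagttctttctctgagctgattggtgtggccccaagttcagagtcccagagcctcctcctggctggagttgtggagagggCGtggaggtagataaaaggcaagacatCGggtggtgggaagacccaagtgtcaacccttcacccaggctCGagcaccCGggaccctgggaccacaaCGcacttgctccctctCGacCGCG

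*Dync1i1*, chr6:5725389-5725688, forward strand: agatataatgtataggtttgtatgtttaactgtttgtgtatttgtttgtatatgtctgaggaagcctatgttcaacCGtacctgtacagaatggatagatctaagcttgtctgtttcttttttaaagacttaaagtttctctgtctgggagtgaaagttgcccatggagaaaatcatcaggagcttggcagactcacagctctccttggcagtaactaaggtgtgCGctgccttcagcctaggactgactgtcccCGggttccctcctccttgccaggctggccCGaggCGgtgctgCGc

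*Slc25a13*, chr6:6217124-6217423, reverse strand: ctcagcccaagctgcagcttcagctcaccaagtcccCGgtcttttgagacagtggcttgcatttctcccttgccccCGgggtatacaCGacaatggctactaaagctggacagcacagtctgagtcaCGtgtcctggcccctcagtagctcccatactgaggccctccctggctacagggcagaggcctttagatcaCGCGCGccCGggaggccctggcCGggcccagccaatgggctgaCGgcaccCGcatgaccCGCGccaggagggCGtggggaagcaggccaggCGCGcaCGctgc

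*Ppp1r9a*, upstream region, chr6:4902725-4903024, forward strand: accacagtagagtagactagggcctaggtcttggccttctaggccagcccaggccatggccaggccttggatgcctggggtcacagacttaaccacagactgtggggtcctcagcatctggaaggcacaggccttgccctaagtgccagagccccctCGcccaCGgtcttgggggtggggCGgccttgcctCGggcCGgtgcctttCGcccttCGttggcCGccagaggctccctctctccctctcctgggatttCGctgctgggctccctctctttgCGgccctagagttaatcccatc

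*Ppp1r9a*, downstream region, chr6:4903061-4903360, forward strand: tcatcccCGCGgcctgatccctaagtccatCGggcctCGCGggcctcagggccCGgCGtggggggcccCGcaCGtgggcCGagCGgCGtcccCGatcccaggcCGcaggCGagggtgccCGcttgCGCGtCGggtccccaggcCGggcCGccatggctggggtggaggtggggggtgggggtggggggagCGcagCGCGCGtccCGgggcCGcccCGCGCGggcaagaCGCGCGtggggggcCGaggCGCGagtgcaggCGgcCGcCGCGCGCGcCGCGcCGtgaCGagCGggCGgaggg

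These windows differ widely in CG content. The downstream *Ppp1r9a* window holds 48 CG pairs, a number reached by 1.22% of the 32851 start windows of the mouse table, whose median is 7, and the upstream one holds 10, as 43.5% of all windows do or exceed. The windows of *Slc25a13* (17), *Pdk4* (12), *Asb4* (6) and *Dync1i1* (6) hold far fewer, and 31.4%, 39.6%, 56.4% and 56.4% of all windows hold as many. The *Asb4* window not shown, at 5390160 to 5390459, holds 8. The letters CCAAT occur on either strand of the *Asb4*, *Pdk4* and *Slc25a13* windows, as in 37.4% of all windows, and in neither the *Dync1i1* window nor those of *Ppp1r9a*. Neither TATAAA (13.6% of all windows) nor TGTTTAC, a sequence bound by FOXO factors (3.65% of all windows), occurs on either strand of any window printed. No other measurement bears on these windows here.

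Per kb of exon, *Gng11* was the highest of the 10 genes in WT cultures, with an RQ per kb of 0.119 ± 0.024 (SD, n = 8) over days 14 and 21. *Samd9l* (0.0237 ± 0.0061), *Slc25a13* (0.0143 ± 0.0020), *Pon2* (0.0114 ± 0.0016), *Sgce* (0.00981 ± 0.0010), *Pdk4* (0.00604 ± 0.00171), *Dync1i1* (0.00434 ± 0.00035) and *Peg10* (0.00382 ± 0.00090) followed, each overlapping the next in its range over 8 libraries. *Asb4* (0.000511 ± 0.000122) and *Ppp1r9a* (0.000388 ± 0.000031) were the lowest and overlapped each other but not *Peg10*. At day 8 the order differed: *Peg10* was second (0.0176 ± 0.0053, n = 4), below *Gng11* (0.0401 ± 0.0025) and above *Sgce* (0.00937 ± 0.00082), without overlap with either.

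**Figure D1:**
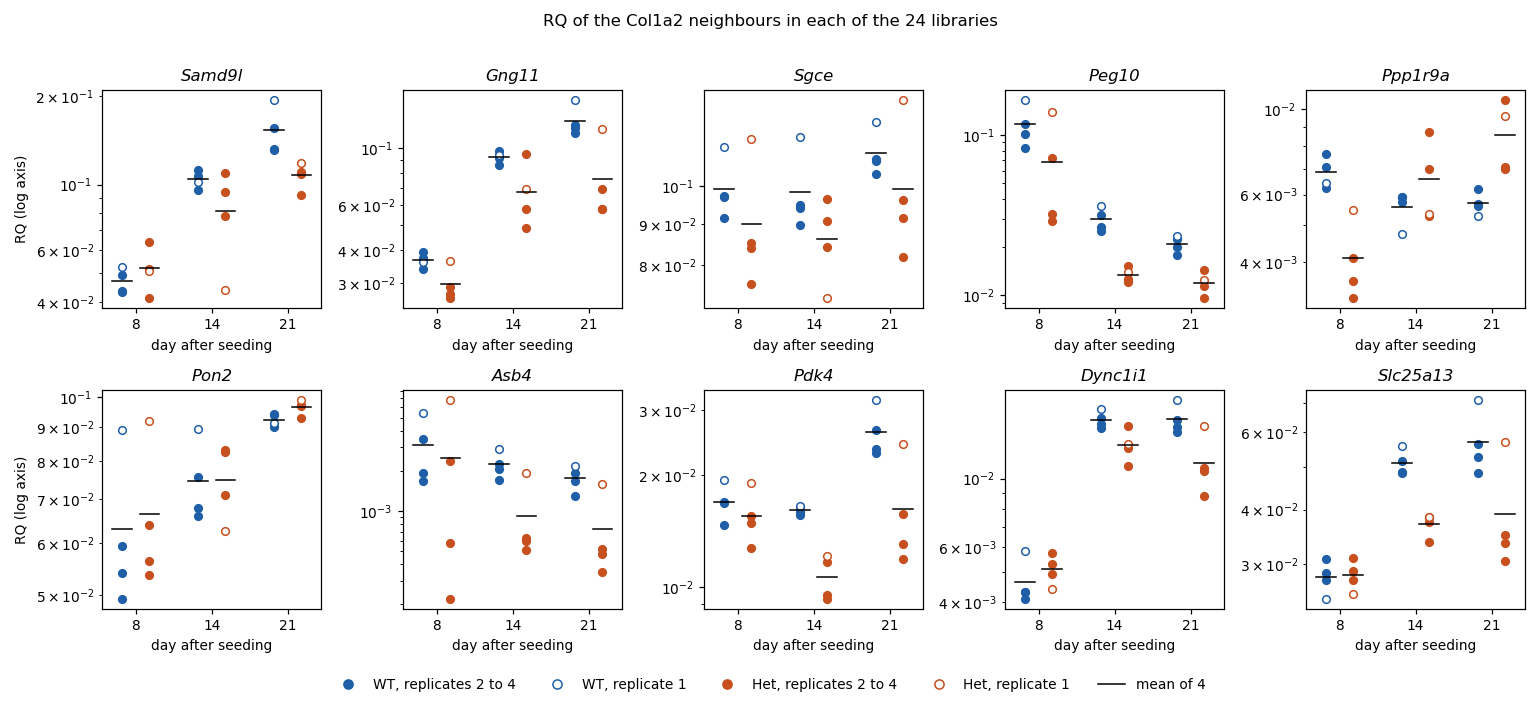
RQ (log axis, a separate range for each gene) of the 10 genes in the 24 libraries by day after seeding, with WT in blue, Het in orange, replicate 1 as open points and the mean of 4 libraries as a line. *Peg10* fell from day 8 to days 14 and 21 in both genotypes, and its 8 later Het libraries (0.00965 to 0.0153) lay below its 8 later WT libraries (0.0179 to 0.0361).

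*Peg10* had the largest change with time of the 10 genes. In replicates 1 to 4 of WT its RQ was 0.166, 0.102, 0.0831 and 0.117 at day 8, then 0.0361, 0.0253, 0.0267 and 0.0317 at day 14, and 0.0235, 0.0179, 0.0202 and 0.0224 at day 21. In Het it was 0.138, 0.0289, 0.0321 and 0.0717 at day 8, then 0.0139, 0.0126, 0.0120 and 0.0153 at day 14, and 0.0125, 0.0114, 0.00965 and 0.0144 at day 21. In each genotype every later library lay below every day 8 library, although the lowest Het libraries of day 8 reached into the later WT range. Over both genotypes *Peg10* was 4.98-fold lower at days 14 and 21 than at day 8 (log2 fold change −2.31 ± 0.20 (SE), adjusted p = 1.56e-09, edgeR's quasi-likelihood test over all genes). The decrease was found in WT alone (−2.22 ± 0.16) and in Het alone (−2.41 ± 0.34). From day 14 to day 21 *Peg10* fell again (−0.34 ± 0.11, adjusted p = 0.032, edgeR), a call that was lost without replicate 2, 3 or 4, in Het alone and without the filter on low counts. In these bulk samples, fewer cells of a type and less RNA per cell cannot be told apart.

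Between genotypes *Peg10* was lower in Het in all 12 pairs of libraries with the same day and replicate number. At days 14 and 21 the ratio of mean RQ, Het over WT, was 0.4998, the Het mean being 0.0127 ± 0.0018 (SD, n = 8) and the WT mean 0.0255 ± 0.0060 (SD, n = 8). It was 0.443 in replicate 1 and 0.523 in replicates 2 to 4, so both replicate sets had about the same difference. At day 8 the ratio was 0.832 in replicate 1 and 0.439 in replicates 2 to 4, and the groups overlapped only through the replicate 1 library of Het. The fitted log2 fold change was −0.98 ± 0.11 at days 14 and 21 and −0.80 ± 0.48 at day 8.

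*Sgce*, which encodes epsilon-sarcoglycan, a membrane protein linked to the dystrophin complex, starts next to *Peg10* but did not share its fall with time. Its RQ was 0.0915 to 0.112 in WT and 0.0759 to 0.114 in Het at day 8, 0.0897 to 0.115 and 0.0730 to 0.0966 at day 14, and 0.104 to 0.120 and 0.0820 to 0.128 at day 21. Over all 4 replicates the genotypes overlapped at each day. Within replicates 2 to 4 they did not at day 8 and day 21, where the Het to WT ratio was 0.858 and 0.846 with Het lower in 3 of 3 pairs, and they did at day 14 (0.974). Replicate 1 had ratios of 1.02 at day 8, 0.635 at day 14 and 1.07 at day 21. From day 8 to the later days the log2 fold change was 0.05 ± 0.08 (adjusted p = 0.60, edgeR), a value that turned to −0.12 with TMM scaling (adjusted p = 0.035, edgeR) and to −0.25 with the total count (adjusted p = 0.000822, edgeR). Without replicate 1 it was 0.10 ± 0.04 (adjusted p = 0.0313, edgeR). The genotype difference was −0.17 ± 0.08 at days 14 and 21 and −0.14 ± 0.13 at day 8. Over the 24 libraries *Sgce* and *Peg10* had a Pearson correlation of log2(RQ + 0.001) of 0.18, and over the 18 of replicates 2 to 4 one of −0.032. At day 8 alone it was 0.88 over 8 libraries, which share replicate structure.

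*Ppp1r9a* encodes neurabin, an actin-binding protein that targets protein phosphatase 1. In replicates 1 to 4 of WT its RQ was 0.00643, 0.00763, 0.00625 and 0.00707 at day 8, then 0.00475, 0.00590, 0.00575 and 0.00590 at day 14, and 0.00529, 0.00621, 0.00566 and 0.00560 at day 21. In Het it was 0.00548, 0.00358, 0.00324 and 0.00410 at day 8, then 0.00533, 0.00871, 0.00700 and 0.00527 at day 14, and 0.00960, 0.00698, 0.00707 and 0.0106 at day 21. All Het libraries of day 8 lay below all WT libraries of day 8, and all Het libraries of day 21 lay above all WT libraries of day 21. With time *Ppp1r9a* fell in WT alone (−0.28 ± 0.09) and rose in Het alone (0.88 ± 0.20). Set side by side, these trends compare the genotypes, so they are given as a description. Averaged over genotypes it rose (0.30 ± 0.11, adjusted p = 0.0231, edgeR), so this mean stands for neither genotype. The call was lost without replicate 2, 3 or 4 and with DESeq2's size factors, TMM or the total count as scale.

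The Het to WT ratio of mean RQ of *Ppp1r9a* was 0.599 at day 8 (0.852 in replicate 1 and 0.521 in replicates 2 to 4) and 1.34 at days 14 and 21 (1.49 and 1.30). The fitted log2 fold changes were −0.75 ± 0.18 and 0.41 ± 0.13, and the later minus the earlier was 1.16 ± 0.22. It was the only one of the 10 genes past an adjusted p of 0.05 for this difference, a state reached by 0.171% of 20434 genes (0.166% higher and 0.00489% lower, 35 in all, or 63 higher and 4 lower with the replicate number as a block). With replicate 2, 3 or 4 left out none of the 10 was past it, and 3, 1 and 0 of all genes were. Without replicate 1 *Dync1i1*, *Pdk4* and *Slc25a13* were as well, beside 4.72% of all genes. The gene averaged 134.4 counts per library.

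*Pon2*, a paraoxonase with antioxidant activity in membranes, rose with time in replicates 2 to 4 and not in replicate 1 from day 8. Its RQ ran from 0.0494 to 0.0892 in WT and 0.0536 to 0.0920 in Het at day 8, from 0.0659 to 0.0894 and 0.0627 to 0.0831 at day 14, and from 0.0901 to 0.0941 and 0.0928 to 0.0989 at day 21. All 8 libraries of day 21 lay above all 8 of day 14 (0.34 ± 0.07, adjusted p = 0.00217, edgeR), as for 1.86% of all genes tested, a call lost in either genotype alone. Against day 8 the later days were higher as well (0.38 ± 0.10, adjusted p = 0.00277, edgeR), a call lost with the total count as scale, without replicate 3 or 4 and in Het alone. The mean of the later days over that of day 8 was 1.496 in WT and 1.507 in Het in replicates 2 to 4, and 1.01 in WT and 0.878 in Het in replicate 1. The Het to WT ratio was 1.05 at day 8 (1.03 in replicate 1, 1.07 in replicates 2 to 4) and 1.03 at days 14 and 21 (0.894 and 1.08). In replicate 1 Het was lower than WT at day 14 (0.0627 against 0.0894) and higher at day 21 (0.0989 against 0.0912).

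*Asb4*, a subunit that recruits substrates to a ubiquitin ligase, was weakly transcribed, at a mean of 36.7 counts per library. In replicates 1 to 4 of WT its RQ was 0.00540, 0.00194, 0.00169 and 0.00348 at day 8, then 0.00292, 0.00171, 0.00208 and 0.00224 at day 14, and 0.00217, 0.00131, 0.00169 and 0.00193 at day 21. In Het it was 0.00676, 0.000574, 0.000221 and 0.00236 at day 8, then 0.00193, 0.000596, 0.000511 and 0.000630 at day 14, and 0.00158, 0.000347, 0.000477 and 0.000518 at day 21. Replicate 1 was the highest library in each of the 6 groups, by 1.32 to 6.43 times the mean of the others. *Asb4* fell with time (−1.15 ± 0.41, adjusted p = 0.0201, edgeR), a call lost without replicate 4 and in either genotype alone. At days 14 and 21 it was lower in Het in 8 of 8 pairs, with a ratio of 0.689 in replicate 1 and of 0.281 in replicates 2 to 4, and groups did not overlap within either set. The fitted log2 fold change between genotypes was −1.38 ± 0.32.

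*Pdk4*, *Dync1i1* and *Slc25a13* follow on the chromosome. *Pdk4* is a kinase that switches off pyruvate dehydrogenase when fat is burned, *Dync1i1* is an intermediate chain of cytoplasmic dynein, and *Slc25a13* is citrin, a mitochondrial carrier that exchanges aspartate for glutamate. None of them separated the genotypes at day 8 over all replicates, and each was lower in Het in all 8 pairs at days 14 and 21.

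*Pdk4* had an RQ in replicates 1 to 4 of WT of 0.0195, 0.0169, 0.0147 and 0.0169 at day 8, 0.0165, 0.0165, 0.0157 and 0.0160 at day 14, and 0.0319, 0.0230, 0.0235 and 0.0265 at day 21. In Het it was 0.0191, 0.0149, 0.0127 and 0.0156, then 0.0121, 0.0117, 0.00956 and 0.00932, and then 0.0244, 0.0131, 0.0119 and 0.0158. The 8 WT libraries of day 8 and day 14 thus stood close together, and every WT library of day 21 stood above them. *Pdk4* rose from day 14 to day 21 (0.65 ± 0.13, adjusted p = 0.00204, edgeR), in WT alone also (0.70 ± 0.11, adjusted p = 0.00548, edgeR), with 0.60 ± 0.23 in Het alone (adjusted p = 0.25). Against day 8 the mean of the later days had a log2 fold change of 0.02 ± 0.11 (adjusted p = 0.91, edgeR), which was 0.28 ± 0.10 in WT and −0.24 ± 0.18 in Het. The Het to WT ratio at days 14 and 21 was 0.636 (0.754 in replicate 1, 0.588 in replicates 2 to 4), and at day 8 it was 0.916.

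*Slc25a13* had an RQ in replicates 1 to 4 of WT of 0.0250, 0.0308, 0.0286 and 0.0275 at day 8, 0.0558, 0.0486, 0.0484 and 0.0517 at day 14, and 0.0710, 0.0486, 0.0526 and 0.0565 at day 21. In Het it was 0.0257, 0.0310, 0.0289 and 0.0277, then 0.0385, 0.0375, 0.0385 and 0.0337, and then 0.0570, 0.0336, 0.0350 and 0.0305. At day 8 each Het library was thus about equal to the WT library of the same number. At days 14 and 21 only the Het replicate 1 library of day 21 reached the WT range. The gene rose with time (0.68 ± 0.09, adjusted p = 1.41e-06, edgeR), by 0.94 ± 0.10 in WT alone and by 0.42 ± 0.15 in Het alone. The Het to WT ratio was 1.01 at day 8 and 0.702 later, with 0.753 in replicate 1 and 0.681 in replicates 2 to 4.

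*Dync1i1* rose from an RQ of 0.00410 to 0.00583 in WT and 0.00441 to 0.00574 in Het at day 8 to 0.0146 to 0.0167 and 0.0110 to 0.0147 at day 14, and stood at 0.0141 to 0.0179 and 0.00880 to 0.0147 at day 21. All 16 later libraries lay above all 8 of day 8 (1.49 ± 0.09, 2.80-fold, adjusted p = 1.63e-11, edgeR), as for 11% of genes. Its Het to WT ratio at days 14 and 21 was 0.776, with 0.800 in replicate 1 and 0.766 in replicates 2 to 4. At day 8 the replicate sets went opposite ways, with 0.757 in replicate 1 and 1.25 in replicates 2 to 4. Within replicates 2 to 4 the genotypes did not overlap at that day (0.00410 to 0.00432 in WT, 0.00493 to 0.00574 in Het).

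The remaining pair lies on the other side of *Col1a2*. *Gng11*, a gamma subunit of heterotrimeric G proteins, had an RQ of 0.0340 to 0.0396 in WT and 0.0262 to 0.0364 in Het at day 8, of 0.0858 to 0.0975 and 0.0487 to 0.0942 at day 14, and of 0.114 to 0.154 and 0.0577 to 0.118 at day 21. It rose with time without overlap (1.41 ± 0.13, 2.66-fold, adjusted p = 4.71e-09, edgeR). At days 14 and 21 *Gng11* was lower in Het in 7 of 8 pairs, the exception being replicate 2 at day 14 (0.0942 in Het, 0.0858 in WT), and the ratio was 0.653 (0.757 in replicate 1, 0.612 in replicates 2 to 4). At day 8 the ratio was 1.01 in replicate 1 and 0.740 in replicates 2 to 4.

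*Samd9l*, an interferon-induced inhibitor of translation and viral growth, had an RQ of 0.0431 to 0.0526 in WT and 0.0412 to 0.0637 in Het at day 8. It reached 0.0959 to 0.112 in WT and 0.0439 to 0.110 in Het at day 14, and 0.131 to 0.194 and 0.0925 to 0.118 at day 21. The Het replicate 1 library of day 14, the shallowest of all with 17140202 counts, was the lowest for *Samd9l*, *Sgce* and *Pon2* among the later libraries. *Samd9l* rose with time (1.14 ± 0.12, adjusted p = 5.45e-08, edgeR) and from day 14 to day 21 (0.47 ± 0.14, adjusted p = 0.0246, edgeR), the latter call being lost without replicate 2 or 3 and in Het alone. Its Het to WT ratio was 0.735 at days 14 and 21 (0.546 in replicate 1, 0.811 in replicates 2 to 4) and 1.10 at day 8.

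With time, then, 8 of the 10 genes passed the test between day 8 and days 14 and 21, 6 higher and 2 lower, beside 58.3% of 20434 genes tested (40.9% higher, 17.4% lower). Whether the choice of genes used such values is not known, so nothing is read from this count. Without replicate 4 the count was 5, the calls of *Asb4*, *Pon2* and *Ppp1r9a* being lost, beside 46.5% of all genes, and without replicate 1 it was 9, beside 70.1%. The median of the 10 log2 fold changes was 0.34, against 0.16 over all genes. *Gng11* and *Dync1i1* separated the days without overlap, both upward, beside 13.7% of all genes (11% upward, 2.7% downward). From day 14 to day 21, 4 of the 10 passed, 3 higher and 1 lower, beside 20.6% of 18857 genes (14.2% higher, 6.41% lower). *Pon2* alone separated these days without overlap, beside 2.59% of all genes (1.86% upward, 0.732% downward). Without replicate 2 or 3 only *Pdk4* and *Pon2* passed, beside 12% and 8.83% of all genes, and in Het alone none did, where 57 genes rose and 12 fell among all 18437 tested. *Col1a2* rose 4.04-fold between day 8 and the later days.

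**Figure D2:**
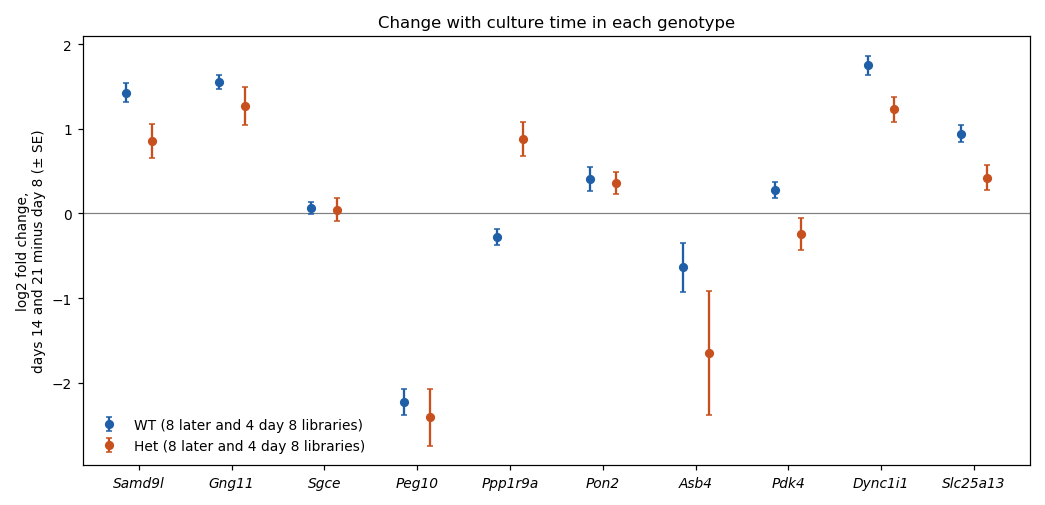
Fitted log2 fold change (± SE) from day 8 to days 14 and 21 of each gene, in WT (blue) and Het (orange) separately, from 8 later and 4 earlier libraries per genotype. *Peg10* fell in both genotypes (−2.22 and −2.41), whereas *Ppp1r9a* fell in WT (−0.28) and rose in Het (0.88).

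Between genotypes at days 14 and 21, 8 of the 10 genes were past an adjusted p of 0.05 (7 lower and *Ppp1r9a* higher in Het), where 17.6% of all 18857 genes were (7.86% higher, 9.76% lower). The genes were chosen with such values known, so nothing is read from this count. It was 2 without replicate 2 (*Gng11* and *Peg10*) and 1 without replicate 3 or 4 or with day 14 or day 21 alone (*Peg10* each time), and 8 without replicate 1. The share of all genes moved in the same settings, to 1.71%, 1.35% and 0.73% without replicate 2, 3 or 4, to 0.185% and 1.97% with day 14 or day 21 alone, and to 39.7% without replicate 1. *Peg10* was the only one whose 8 Het and 8 WT libraries did not overlap, as for 0.955% of all genes (0.541% lower and 0.414% higher in Het). At day 8 none of the 10 and none of 18222 genes was past that threshold with edgeR, where 1817 genes and 2 of the 10 (*Gng11* and *Ppp1r9a*) had an unadjusted p under 0.05. DESeq2's Wald test called 191 genes higher and 240 lower there, *Ppp1r9a* among the latter, and edgeR with the replicate number as a block called 106 higher and 179 lower, none of the 10 among them. Without replicate 1, 834 genes were higher and 2598 lower at day 8, and *Gng11*, *Peg10*, *Ppp1r9a* and *Sgce* were past the threshold. *Ppp1r9a* alone of the 10 separated the genotypes at day 8 without overlap, beside 4.8% of all genes (3.61% lower and 1.19% higher in Het).

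**Figure D3:**
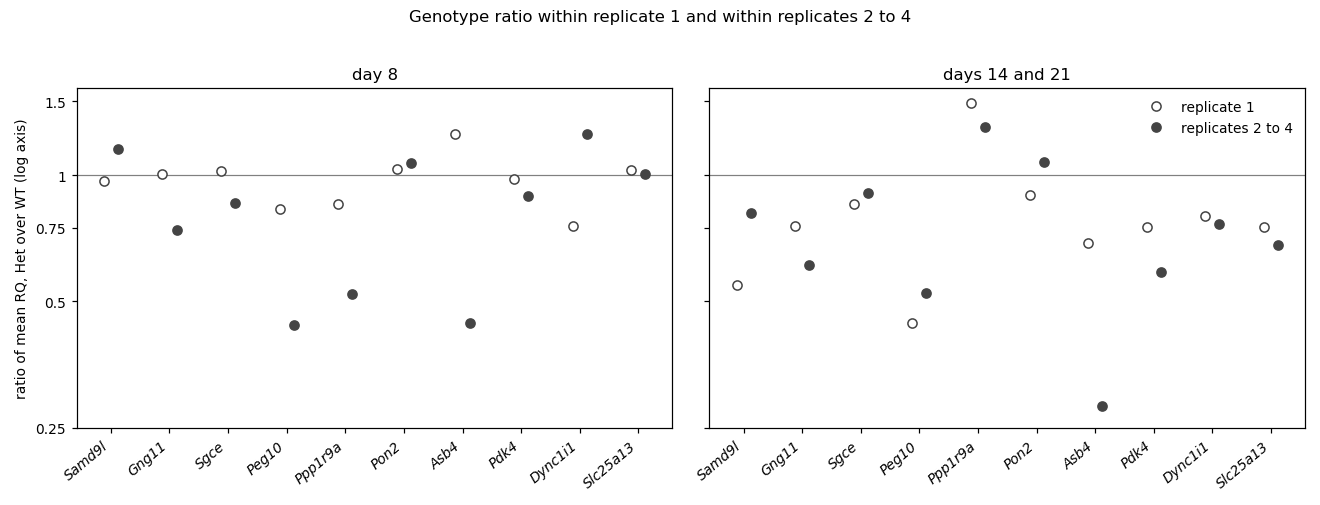
Ratio of mean RQ, Het over WT (log axis), of each gene within replicate 1 (open points, 1 library per genotype and day) and within replicates 2 to 4 (filled points), at day 8 (left) and at days 14 and 21 (right). At the later days the sets fell on the same side of 1 for 9 genes, *Pon2* being the exception (0.894 and 1.08). In replicate 1 *Pon2* and *Sgce* were lower in Het at day 14 and higher at day 21. Their later values there thus rest on the Het library of day 14, the shallowest of all. At day 8 the sets of 5 genes lay on opposite sides, among them *Asb4* (1.25 and 0.443) and *Dync1i1* (0.757 and 1.25).

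Chosen by position alone, 38 genes within 4 Mb of *Col1a2* other than *Col1a2* itself passed the filter at days 14 and 21, and 15 of them (39.5%) were past an adjusted p of 0.05 between genotypes, 2 higher and 13 lower in Het, beside 17.6% of all genes. The count includes the 10 genes above, 8 of them past the threshold, so nothing is read from it. Of the other 28, 7 (25%) passed: *Asns* was higher (0.67 ± 0.11), and *C1galt1* (−0.83 ± 0.12), *Gm43921* (−0.73 ± 0.11), *Gm20559* (−0.43 ± 0.14), *Dlx5* (−0.37 ± 0.11), *Mios* (−0.20 ± 0.06) and *Gm43961* were lower. *Asns* encodes asparagine synthetase, *C1galt1* a glycosyltransferase and *Dlx5* a transcription factor of OBs. *Gm43921* lies inside an intron of *Col1a2* on the same strand, so its reads cannot be told apart from unspliced *Col1a2* RNA. Leaving out replicate 2, 3 or 4 gave 5, 4 or 3 of these genes in place of 15, with the share of all genes at 1.71%, 1.35% or 0.73%. With time, 27 of 41 passed (65.9%), beside 58.3% of all genes, and in Het alone 17 did, beside 40.3%. From day 14 to day 21, 8 of 38 did (21.1%).

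**Figure D4:**
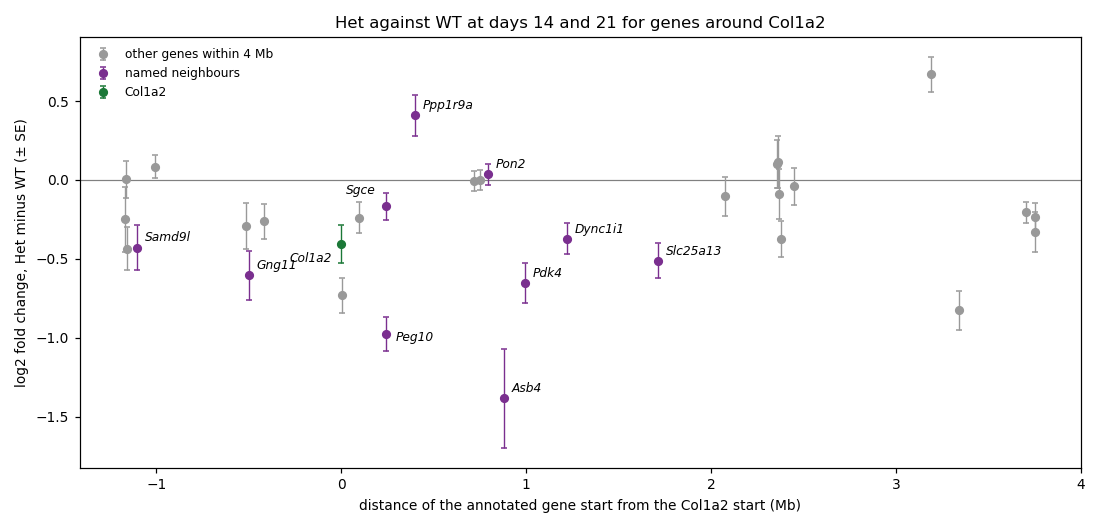
Log2 fold change (± SE) between Het and WT at days 14 and 21 for genes within 4 Mb of *Col1a2*, by the distance of each gene start from the *Col1a2* start in Mb, with the 10 listed genes in purple, *Col1a2* in green and other genes averaging at least 50 counts in grey. *Peg10* (−0.98) and *Sgce* (−0.17) start at nearly the same place, and *Pon2* (0.04) lies beside *Asb4* (−1.38).

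Markers of other cell types moved with some of these genes. The OB markers *Runx2*, *Sp7*, *Ibsp*, *Col1a1*, *Alpl* and *Bglap* were all transcribed, with a summed RQ of 17.4 to 48.0 at day 8 and 95.6 to 186 later, and all 6 rose with time. At days 14 and 21, 4 of them were lower in Het (*Bglap*, *Col1a1*, *Runx2* and *Sp7*). The chondrocyte markers *Acan*, *Col2a1*, *Col9a1*, *Matn1*, *Sox9* and *Comp* were above 0 in each group, 5 of 6 fell with time and *Comp* rose, and 6 of 6 were higher in replicate 1. In replicates 2 to 4 their summed RQ was 21.4 to 26.5 in WT and 5.75 to 17.5 in Het at day 8, 7.72 to 14.8 and 1.79 to 2.89 at day 14, and 6.39 to 9.31 and 1.64 to 2.34 at day 21, without overlap between genotypes. In replicate 1 it was 35.7 and 34.5 at day 8, 24.2 and 25.8 at day 14, and 12.7 and 13.3 at day 21, about equal in WT and Het. *Sox9* was the only one of the 6 called between genotypes over all 4 replicates (−0.70 ± 0.20). Of all genes tested, 40.9% rose and 17.4% fell with time, and 33.1% were higher in replicate 1. Between genotypes at days 14 and 21, 7.86% were higher and 9.76% lower in Het.

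*Asb4* followed the summed RQ of these markers, in which the most abundant weigh most, with a correlation of log2 values of 0.93 over the 16 later libraries and 0.92 over the 8 of day 8. In the later Het libraries *Asb4* had only 8 to 17 counts. *Peg10* had 0.99 at day 8 and 0.65 later. *Sgce*, *Pdk4* and *Gng11* had 0.85, 0.83 and 0.78 at day 8, and 0.345, 0.50 and 0.56 later. *Pon2* had 0.58 at day 8 and −0.23 later, and *Samd9l* −0.19 and −0.005. *Slc25a13* and *Dync1i1* had 0.74 and 0.70 later, and −0.68 and −0.39 at day 8. *Ppp1r9a* had 0.83 at day 8 and −0.575 later, and with the macrophage markers given next −0.93 and 0.57, signs that turned as its genotype difference did. The libraries of each set share day, genotype and replicate structure. Replicate 1 has 1 library per genotype and day. Its chondrocyte sums at days 14 and 21 were about equal in WT and Het, whereas its macrophage sums, given below, differed. Over these days its Het to WT ratio was 0.443 for *Peg10*, 0.546 for *Samd9l*, 0.689 for *Asb4*, 0.753 for *Slc25a13* and 0.754 for *Pdk4*. It was 0.757 for *Gng11*, 0.800 for *Dync1i1*, 0.854 for *Sgce*, 0.894 for *Pon2* and 1.49 for *Ppp1r9a*. For *Sgce* and *Pon2* Het was the lower at day 14 only, where its library is the shallowest of all. At day 8 the same replicate had 0.832 for *Peg10* and 1.25 for *Asb4*. The part of chondrocyte content in the differences of these genes, in either replicate set, was not tested.

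**Figure D5:**
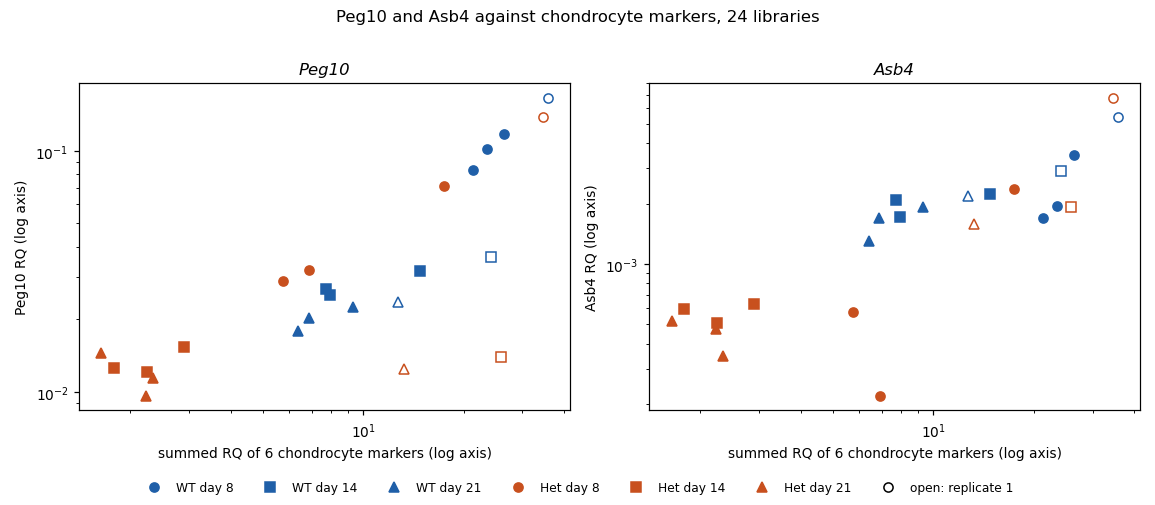
RQ of *Peg10* (left) and *Asb4* (right) against the summed RQ of 6 chondrocyte markers in the 24 libraries (both axes log), with circles for day 8, squares for day 14, triangles for day 21, WT in blue, Het in orange and replicate 1 as open symbols. The open orange square and triangle, Het replicate 1 at days 14 and 21, have marker sums of 25.8 and 13.3 and a *Peg10* RQ of 0.0139 and 0.0125, below the WT replicate 1 libraries (0.0361 and 0.0235).

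The 8 macrophage markers all rose with time, and 7 of 8 were higher in Het at days 14 and 21. Their summed RQ in replicates 2 to 4 was 0.211 to 0.262 in WT and 0.665 to 0.897 in Het at day 8, 1.19 to 2.03 and 5.84 to 6.37 at day 14, and 5.10 to 6.03 and 9.70 to 15.7 at day 21, without overlap between genotypes. In replicate 1 it was 0.438 in WT and 0.368 in Het at day 8, 3.82 and 2.58 at day 14, and 5.15 and 6.68 at day 21, so Het was the higher at day 21 only. *Samd9l*, transcribed in myeloid cells among others, had a correlation with this sum of 0.17 over the 16 later libraries, and *Pon2* one of 0.78. *Asb4* had −0.675 later and −0.49 at day 8, and *Peg10* −0.66 and −0.695, opposite in sign to their chondrocyte correlations. In the same order *Gng11* had −0.26 and −0.88, *Dync1i1* −0.58 and 0.74, and *Slc25a13* −0.42 and 0.0775. *Sgce* had 0.0955 and −0.55, and *Pdk4* −0.035 and −0.435. The sums were 0.0435 to 0.435 for adipocyte markers, 0.00303 to 0.00652 for endothelial markers and 0.00531 to 0.0348 for skeletal muscle markers. *Lep*, *Cidec*, *Emcn*, *Ckm* and *Myog* were at 0 in all libraries of at least 1 group. With time 2 of 3 adipocyte, 2 of 5 endothelial, 3 of 3 skeletal muscle and 3 of 4 smooth muscle markers tested passed, as did the fibroblast marker *Clec3b*. Between genotypes *Kdr* and *Myh11* alone of these passed. Of all genes, 58.3% passed with time and 17.6% between genotypes at days 14 and 21. The part of these cells in the values above was not tested.

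Replicate 1 differed from replicates 2 to 4 in 6 of the 10 genes, all higher in replicate 1, beside 39.9% of 20772 genes (33.1% higher, 6.74% lower). They were *Asb4* (1.43 ± 0.32, adjusted p = 0.001, edgeR), *Peg10* (0.62 ± 0.18, adjusted p = 0.00935), *Pdk4* (0.38 ± 0.08, adjusted p = 0.000817), *Gng11* (0.32 ± 0.11), *Pon2* (0.26 ± 0.09) and *Sgce* (0.25 ± 0.07). With TMM or DESeq2's size factors as scale only *Asb4*, *Pdk4* and *Peg10* were called, beside 32% and 31.4% of all genes. Without replicate 3 only *Asb4*, *Pdk4* and *Sgce* were, beside 32.2%. *Col1a2* was lower in replicate 1 (−0.46 ± 0.15, adjusted p = 0.0184, edgeR). The scale itself moved, since *Mrfap1* was lower (−0.34 ± 0.05) and *Sdha* higher (0.21 ± 0.03) in replicate 1.

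Among 14889 genes that averaged at least 50 counts, the 5 whose log2(RQ + 0.001) was most like that of *Peg10* over the 24 libraries were *Mbnl3* (r = 0.945), *Lctl* (0.944), *Unc5c* (0.943), *Syt8* (0.938) and *Thsd7a* (0.934). *Unc5c*, a netrin receptor, went from a mean RQ of 0.202 in WT and 0.155 in Het at day 8 to 0.105 and 0.0652 at day 14 and 0.0791 and 0.0557 at day 21. *Mbnl3*, a splicing regulator, went from 0.0107 and 0.00904 to 0.00543 and 0.00351 and then 0.00391 and 0.00290. Over replicates 2 to 4 alone, *Unc5c* was the only one that remained among the 5 most alike. *Col1a2* had a correlation of −0.81 with *Peg10*. The libraries share day and replicate structure, so these values describe a pattern and carry no test.

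The other genes of the pathways these neighbours belong to gave the following counts. In the proximal chromosome 6 imprinted list (*Sgce*, *Peg10*, *Ppp1r9a*, *Pon2*, *Asb4*, *Pon3*, *Tfpi2* and *Calcr*), 7 of 8 were tested, 2 rose and 3 fell with time, and at days 14 and 21 1 was higher and 2 lower in Het, all of them genes described above. *Tfpi2* fell with time (−0.63 ± 0.11, adjusted p = 4.08e-05, edgeR). Of the gag genes derived from retrotransposons, the relatives of *Peg10*, 9 of 11 were tested, 2 rose and 3 fell with time, *Rtl9* the most after *Peg10* (−1.62 ± 0.18), and *Rtl5* was lower in Het with *Peg10* (−0.47 ± 0.12). For *Sgce*, 10 of 12 genes of the sarcoglycan and dystrophin complex were tested and 4 rose with time, *Sgca* the most (3.99 ± 0.20), and *Sgca* (−0.79 ± 0.20) and *Sspn* (−0.33 ± 0.09) were lower in Het. Of the paraoxonases, *Pon2* rose with time and *Pon3* passed neither test.

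For *Pdk4*, 9 of 9 genes of pyruvate dehydrogenase control were tested. With time 3 rose and 2 fell, led by *Pdk1* (1.68 ± 0.19), and in Het *Dlat* was higher (0.13 ± 0.04) and *Pdk2* (−0.31 ± 0.10) and *Pdk4* lower. Of the fasting targets of PPAR and FOXO factors, 5 of 9 rose and 2 fell with time, and in Het *Plin2* (0.48 ± 0.10) and *Cpt1a* (0.25 ± 0.05) were higher while *Klf15* (−0.52 ± 0.14) and *Pdk4* were lower. In the malate-aspartate shuttle, to which *Slc25a13* belongs, 2 of 7 rose and 3 fell with time, and in Het the aminotransferases *Got1* (0.59 ± 0.08) and *Got2* (0.14 ± 0.03) were higher where *Slc25a13* was lower. Of 10 cytoplasmic dynein subunits *Dync1i1* (1.49) and *Dync1li2* (0.14 ± 0.05) rose with time, and *Dync1i1* alone was past the threshold between genotypes. Of 10 interferon-stimulated genes 9 rose with time, *Ifit3* by 1.46 ± 0.26 and *Oasl2* by 1.99 ± 0.40, and in Het *Oasl2* was higher (1.58 ± 0.43) where *Samd9l* was lower. The background shares are those given for the same comparisons above.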

How the data were processed

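Polyadenylated RNA of 24 cultures was sequenced from Illumina TruSeq libraries without molecular identifiers. The authors deposited raw counts per gene, 1 file per library, beside an exon length per gene. The submitters' processing notes name cutadapt 2.5, STAR 2.73a, featureCounts 1.6.4 of Subread, and mm10. Strand and multiple-match rules are not given in the sources used here, and counting error leaves out PCR duplication. Identifiers of 54587 of 55335 genes matched GENCODE M21 (GRCm38), which gave positions. Totals were 17140202 to 59734231 counts (median 48340136). Counts of each of the 36 replicate pairs differed by more than sampling noise (smallest chi-square per degree of freedom 5.14).

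RQ followed the study. Counts were fitted with edgeR 4.0.16 (R 4.3.3, quasi-likelihood test, filterByExpr, Benjamini-Hochberg adjustment over all genes, threshold 0.05), with the housekeeping geometric mean as library scale, over 6 group means, or over days 14 and 21 with day or genotype as a covariate. The study examined 6 wells per genotype at these days, the labels list 8, and all were used. SE is the log2 fold change divided by the square root of its F. The edgeR fit was also run on simulated counts with 200 changed genes, and the outcome is not given here. The genes, gene lists and tests were chosen with earlier results of these data known. Named were the 10 genes, *Col1a2*, the housekeeping genes, window genes averaging at least 50 counts, the 5 genes most like *Peg10* and up to 4 genes per list with the smallest adjusted p. *Gm43961*, under that minimum, was named after its values were seen.

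Deviations from the group means correlated positively between WT and Het libraries that share a number and a day in all 12 cases (0.193 to 0.713, median 0.453, against −0.124 for 36 pairs of different numbers). Centring on the group means lowers the value for different numbers. Among replicates 2 to 4 alone the same numbers had 0.016 to 0.344, so the positive values rest mostly on replicate 1. Different numbers were not compared within replicates 2 to 4, so whether those numbers pair libraries was not tested. The fitted values and SEs given do not use such a pairing, and the fit with the number as a block is an alternative. Alternatives were TMM, DESeq2 1.42.0 size factors and Wald test, the total count, other filters, the replicate block, replicate 1 as a covariate, single days, single genotypes, and each replicate left out.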

Additional observations from a re-analysis of the deposited data

Results flagged for a closer look

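In 5 of the 60 groups of 4 libraries examined (10 genes in 6 groups), the highest or lowest library stood apart from the other 3 by more than Dixon's 95% limit, which chance alone gives in about 1 of 20 groups. All 5 were replicate 1 libraries. *Asb4* in Het had a high replicate 1 at day 14 (RQ 0.00193) and at day 21 (0.00158). *Dync1i1* had a high replicate 1 in WT at day 8 (0.00583), and *Slc25a13* one in Het at day 21 (0.0570). *Ppp1r9a* had a low replicate 1 in WT at day 14 (0.00475).

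The genotype difference of *Ppp1r9a* changed between day 8 and days 14 and 21 by 1.16 on the log2 scale (SE 0.22), from lower to higher in Het, past the threshold over all genes in edgeR's interaction term. The gene was chosen with genotype results known, so this is a description.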

How the results depend on the processing

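Of 367 values of the 10 genes recomputed between days or replicate sets, 305 kept their direction and their side of the threshold, 37 lost a call, 5 gained one and 20 changed sign. Of 378 between genotypes, given without a test, 377 moved by less than the spread between replicates, and the change of the genotype difference of *Dync1i1* moved from −0.52 to −0.73 without replicate 1. From day 8 to the later days, TMM moved the median of all genes from 0.16 to −0.02 and the calls from 8351 higher and 3560 lower to 5618 and 6675 (total count 4376 and 8793, DESeq2's size factors 6152 and 6035). With it the log2 fold change of *Sgce* turned to −0.12 and that of *Pdk4* to −0.16 (DESeq2's size factors −0.087 and −0.12, total count −0.25 and −0.29). *Pdk4* was −0.24 in Het alone, *Ppp1r9a* was −0.28 in WT alone, and with each replicate left out in turn *Pdk4* ran from −0.004 to 0.034 and *Sgce* from −0.006 to 0.10. Calls between genotypes at days 14 and 21 were 1482 higher and 1840 lower, with TMM 2502 and 1540, with DESeq2's size factors 2731 and 1441 and with the total count 3343 and 1052. Replicate 1 against the others had 6884 and 1400, and 3237 and 3418 with TMM, 3385 and 3137 with DESeq2's size factors, and 4171 and 2242 with the total count. There *Samd9l* and *Ppp1r9a*, both 0.002, turned to −0.14 and −0.15 with TMM, −0.13 and −0.14 with DESeq2's size factors, −0.089 and −0.088 with the total count, and *Samd9l* to −0.002 with DESeq2's Wald test, and with a replicate left out *Samd9l* ran from −0.029 to 0.004 and *Ppp1r9a* from −0.05 to 0.028. *Slc25a13* between days 14 and 21 likewise ran from −0.028 (without replicate 1) to 0.17.

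With each replicate left out in turn, the 10 genes had 5 to 9 calls between day 8 and the later days, 2 to 4 between days 14 and 21, 1 to 8 between genotypes at the later days, 0 to 4 at day 8, 0 to 4 for the change of the genotype difference, and 3 to 5 between replicate sets. The share of all genes called moved as well, from 46.5% to 70.1%, from 8.83% to 29.3% and from 0.73% to 39.7% for the first 3 of these. It ran from 0% to 18.7% at day 8, from 0% to 4.72% for the change and from 32.2% to 32.5% between replicate sets. The window had 3 to 18 between genotypes at the later days, beside the same 0.73% to 39.7% of all genes. Of these days, day 14 alone gave 1 and 1 for the genes and the window, beside 0.185% of all genes. Day 21 alone gave 1 and 4, beside 1.97%. Het alone gave 0 between days 14 and 21, beside 0.374% of all genes, and 17 in the window from day 8, beside 40.3%. Between genotypes at day 8, DESeq2's Wald test and replicate 1 as a covariate each gave 1, beside 2.37% and 3.86% of all genes. Between replicate sets TMM and DESeq2's size factors each gave 3, beside 32% and 31.4% of all genes. Over replicates 2 to 4, 1 of the 5 genes most like *Peg10* remained. With the replicate number as a block, 8 of the 10 genes were called between day 8 and the later days, 4 between days 14 and 21, 8 between genotypes at the later days, 0 at day 8 and 1 for the change, and the block changed no call of a gene among the 10. In the same order, 64.2%, 24.5%, 24.9%, 1.56% and 0.328% of all genes were called. The cause of these changes was not tested. *Asb4* (36.7 counts per library) and *Ppp1r9a* (134.4) are the genes that depth limits most.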
